A study of Mus musculus with 8 samples.

Results

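ICC-MY are the interstitial cells of Cajal of the myenteric plexus, the pacemaker cells that lie between the muscle layers of the gut wall. Here their transcript levels were set against those of the tunica muscularis, the muscle coat from which they were isolated. The comparison used 5 of the 8 arrays of the study, the 3 titled ICC-MY and the 2 titled tunica muscularis, chosen by title alone. The 3 remaining arrays, of ICC-DMP, the interstitial cells of the deep muscular plexus, entered the fit and served to show where ICC-MY differ from the other class.

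Every sample came from BALB/c mice of 6 to 9 days, from small intestine, with no treatment named. About 50 ng of total RNA per sample was amplified in 2 rounds, the first primed from the poly(A) tail. The titles call the samples biological replicates. The sources used here do not give the cell isolation method, the sex or the number of animals per sample, and a p-value therefore measures a difference only against the spread between these samples. The ICC-MY were isolated cells and the muscle coat was whole tissue, so cell class and isolation cannot be told apart in this comparison. The tissue itself contains ICC, and in whole tissue fewer cells of a type and less RNA per cell cannot be told apart.

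Interstitial cells of Cajal generate the electrical slow waves of gut muscle. In the current view, calcium released from stores opens the ANO1 chloride channel, a T-type calcium channel carries the depolarization along the network, and gap junctions pass it to smooth muscle. The cells depend on the receptor tyrosine kinase KIT, which binds stem cell factor made by neighbouring cells.

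Array medians of the log2 values lay between 4.18 and 4.31. The values spread less widely over probe sets on 1 ICC-MY array, replicate 1, and on 1 tissue array, also replicate 1 (SD 1.98 and 2.06, against 2.22 to 2.31 on the rest). The actin control's 3' minus 5' difference was 4.28 on ICC-MY replicate 3 and 2.53 to 3.53 on the other ICC-MY and tissue arrays. The Y-linked gene Eif2s3y read 2.30 on tunica muscularis replicate 1 and 8.01 on replicate 2, and 6.04, 7.13 and 7.13 on the ICC-MY arrays. The fit was also run without both narrow-range arrays, which left 1 tissue array.

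By limma, 2516 of 18193 genes (13.8%) differed between ICC-MY and tunica muscularis at a Benjamini-Hochberg adjusted p under 0.05, the threshold for every gene described as called, higher or lower. Of all genes, 736 (4.05%) were higher in ICC-MY and 1780 (9.78%) were lower, and the median difference over all genes was -0.02 log2 units. Counts of the gene lists below are to be read against these 2 shares. Without both narrow-range arrays 1 tissue array remained, and the spread came from the ICC groups alone. The median difference over all genes was -0.01 in that fit. The higher count depended most on single arrays: 1255 without ICC-MY replicate 1, then 482 with replicate 2 left out, and 411 without tunica muscularis replicate 1. The ICC-MY and tissue arrays did not overlap for 34.2% of genes. Between ICC-MY and ICC-DMP 1577 genes (8.67%) differed, 601 (3.30%) higher in ICC-MY and 976 (5.36%) lower. That count was 2617 with the replicate number as a block. Between ICC-DMP and tissue 11.0% of genes differed.

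The ICC identity genes were high in ICC-MY. Kit, which encodes the receptor tyrosine kinase these cells require, read 10.81, 12.42 and 11.99 on the 3 ICC-MY arrays and 7.20 and 8.43 on the tissue arrays. The difference was 3.92 log2 units (SE 0.50, adjusted p = 0.00112), and every ICC-MY array lay above both tissue arrays. Prkcq, which encodes protein kinase C theta, read 10.61, 12.04 and 11.50 against 6.42 and 7.43, a difference of 4.46 (SE 0.47, adjusted p = 0.000446). Edn3, the gene of the secreted peptide endothelin 3, read 8.56, 10.00 and 9.20 in ICC-MY and 5.59 and 5.63 in tissue, and was higher by 3.65 (SE 0.42, adjusted p = 0.000632). Cacna1h, which encodes a T-type calcium channel, read 7.59, 8.23 and 8.96 against 5.66 and 5.78 and was higher by 2.54 (SE 0.38, adjusted p = 0.0026). For these 4 genes the groups did not overlap and the call held in each of 17 alternative analyses.

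Ano1, the chloride channel of the pacemaker current, read 12.20, 13.55 and 13.41 in ICC-MY and 10.29 and 11.76 in tissue. Its difference was 2.03 (SE 0.49, adjusted p = 0.0287), with no overlap between the groups. The call was lost in 8 alternatives, with adjusted p = 0.155 without tunica muscularis replicate 1, and with 0.0834 and 0.0877 when ICC-MY replicate 2 or 3 was left out. It was also lost without any 1 of the ICC-DMP arrays, which enter only through the shared estimate of the spread.

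Of 15 ICC markers, 13 were measured, and 8 of them were higher and 2 lower in ICC-MY (median difference 2.17). Etv1 and Hcn4 had no probe set that named them alone. The fatty acid elongase gene Elovl6 was higher by 2.76 (SE 0.37, adjusted p = 0.00147) and Cd44, a hyaluronan receptor gene, by 2.41 (SE 0.31, adjusted p = 0.00113). Slc12a2, which encodes the NKCC1 transporter that loads cells with chloride, was higher by 2.17 (SE 0.52, adjusted p = 0.0273), but not without tunica muscularis replicate 1 (adjusted p = 0.152). Kitl, the gene of the KIT ligand stem cell factor, was lower by contrast. It read 9.25, 9.83 and 9.51 in ICC-MY and 10.61 and 11.91 in tissue (difference -1.73, SE 0.39, adjusted p = 0.0194, and 0.094 without tunica muscularis replicate 2). Gucy1a1, a subunit gene of the nitric oxide receptor guanylyl cyclase, was also lower (-1.43, SE 0.34, adjusted p = 0.0245, and 0.108 without tunica muscularis replicate 2). Some of these markers became known from profiles of isolated ICC, so their levels give no independent check of cell identity.

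Set against ICC-DMP, the markers divided. Kit differed by 0.65 (SE 0.45, adjusted p = 0.553) and Ano1 by -0.06 (SE 0.44, adjusted p = 0.972) between the classes, neither of which passed. Prkcq was higher in ICC-MY than in ICC-DMP by 4.52 (SE 0.42, adjusted p = 0.000316), Edn3 by 3.62 (SE 0.37, adjusted p = 0.000501) and Cacna1h by 3.33 (SE 0.34, adjusted p = 0.000469). On the ICC-DMP arrays Edn3 read 5.94, 5.91 and 5.05 and Prkcq 7.11, 7.18 and 6.29, and both genes overlapped the tissue arrays there. Thbs4, which encodes the matrix protein thrombospondin 4, did not pass against tissue (9.51, 10.24 and 10.73 against 9.14 and 9.38, adjusted p = 0.106) and was lower than in ICC-DMP (difference -2.71, SE 0.28, adjusted p = 0.000497). Tacr1, the substance P receptor gene, differed from tissue by 0.12 (SE 0.16, adjusted p = 0.767).

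**Figure D1:**
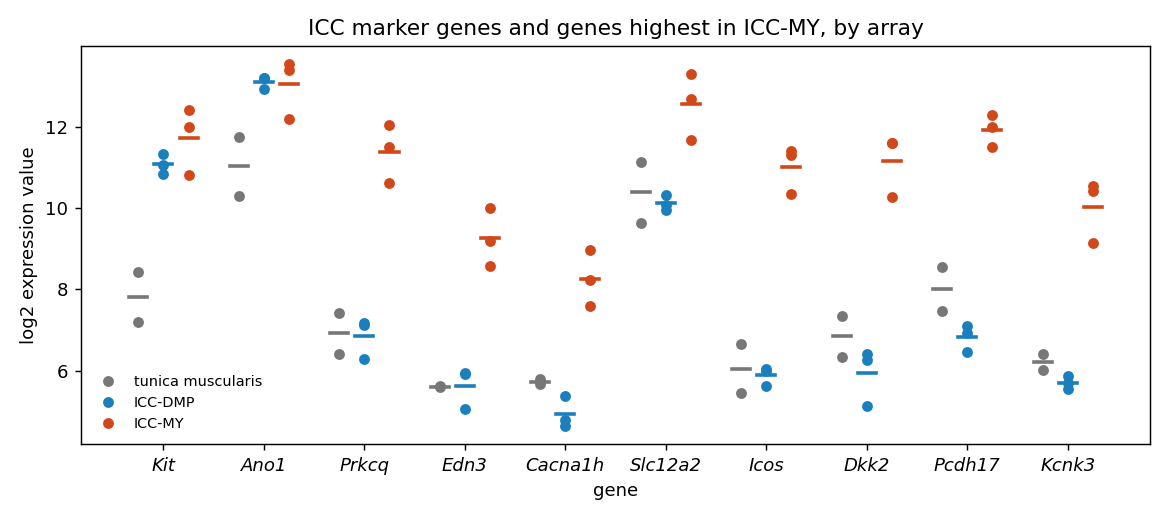
Log2 expression values (vertical axis) of ICC markers and of genes high in ICC-MY, for each of the 8 arrays; points are arrays, coloured by group, and short bars are group means. The 3 ICC-MY points of Kit lie between 10.81 and 12.42, above both tissue points, and ICC-DMP joins ICC-MY for Kit and Ano1 but lies near tissue for Prkcq, Edn3 and Icos.

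Genes outside the usual ICC set were among the 30 largest increases. Icos, known as a costimulatory receptor of T lymphocytes, was the largest. It read 10.35, 11.42 and 11.30 in ICC-MY, 5.44 and 6.66 in tissue and 6.03, 5.99 and 5.63 in ICC-DMP, a difference from tissue of 4.97 (SE 0.42, adjusted p = 0.000121). All 3 probe sets of Icos were called higher. Of the 15 lymphocyte markers measured it was the only one called in this comparison, and the mean level of that list was 4.35 to 4.58 on the ICC-MY arrays and 3.95 to 4.17 in tissue. Without Icos the mean of the other 14 genes was 3.86 to 4.17 in ICC-MY and 3.75 and 4.08 in tissue, and the groups overlapped. Ms4a4b, another gene known from T cells, read 7.26, 7.32 and 7.39 in ICC-MY and 3.24 on both tissue arrays, a difference of 4.08 (SE 0.16, adjusted p = 4.46e-06). The part of lymphocytes in these 2 differences was not tested.

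The largest increases also included genes of secreted regulators and surface proteins. Dkk2, which encodes a secreted Wnt modulator, read 10.27, 11.61 and 11.60 against 6.35 and 7.34 and was higher by 4.32 (SE 0.53, adjusted p = 0.000981). Pcdh17, a protocadherin gene of cell contacts, read 11.50, 12.29 and 12.00 against 7.47 and 8.56, a difference of 3.92 (SE 0.36, adjusted p = 0.000218). Npb, the gene of neuropeptide B, was higher by 3.80 (SE 0.29, adjusted p = 7.27e-05). Il6, the gene of the cytokine interleukin 6, was higher by 3.89 (SE 0.59, adjusted p = 0.00276) and Tafa2, which encodes a secreted chemokine-like protein, by 3.56 (SE 0.37, adjusted p = 0.000368). For each of these genes all ICC-MY arrays lay above both tissue arrays.

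Col26a1, a collagen gene, read 7.35, 8.10 and 8.76 in ICC-MY and 4.04 and 3.94 in tissue (difference 4.08, SE 0.35, adjusted p = 0.000148). Ramp3, which encodes a receptor activity-modifying protein that partners the calcitonin receptor-like receptor, read 8.34, 9.21 and 8.96 against 4.92 and 5.35 (difference 3.70, SE 0.26, adjusted p = 4.47e-05). Glis3, a zinc finger transcription factor gene, was higher by 3.63 (SE 0.21, adjusted p = 1.82e-05), and Gpr20, an orphan receptor gene, by 3.53 (SE 0.40, adjusted p = 0.000599). Gpr20 also read 11.14, 11.20 and 11.39 in ICC-DMP, a difference between the classes of 0.56 (SE 0.36, adjusted p = 0.513). Rasd2, which encodes a small GTPase of the Ras family, was higher than tissue by 4.18 (SE 0.30, adjusted p = 4.82e-05), and Tnfaip2, a gene first described as induced by tumour necrosis factor, by 4.33 (SE 0.27, adjusted p = 2.6e-05).

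**Figure D2:**
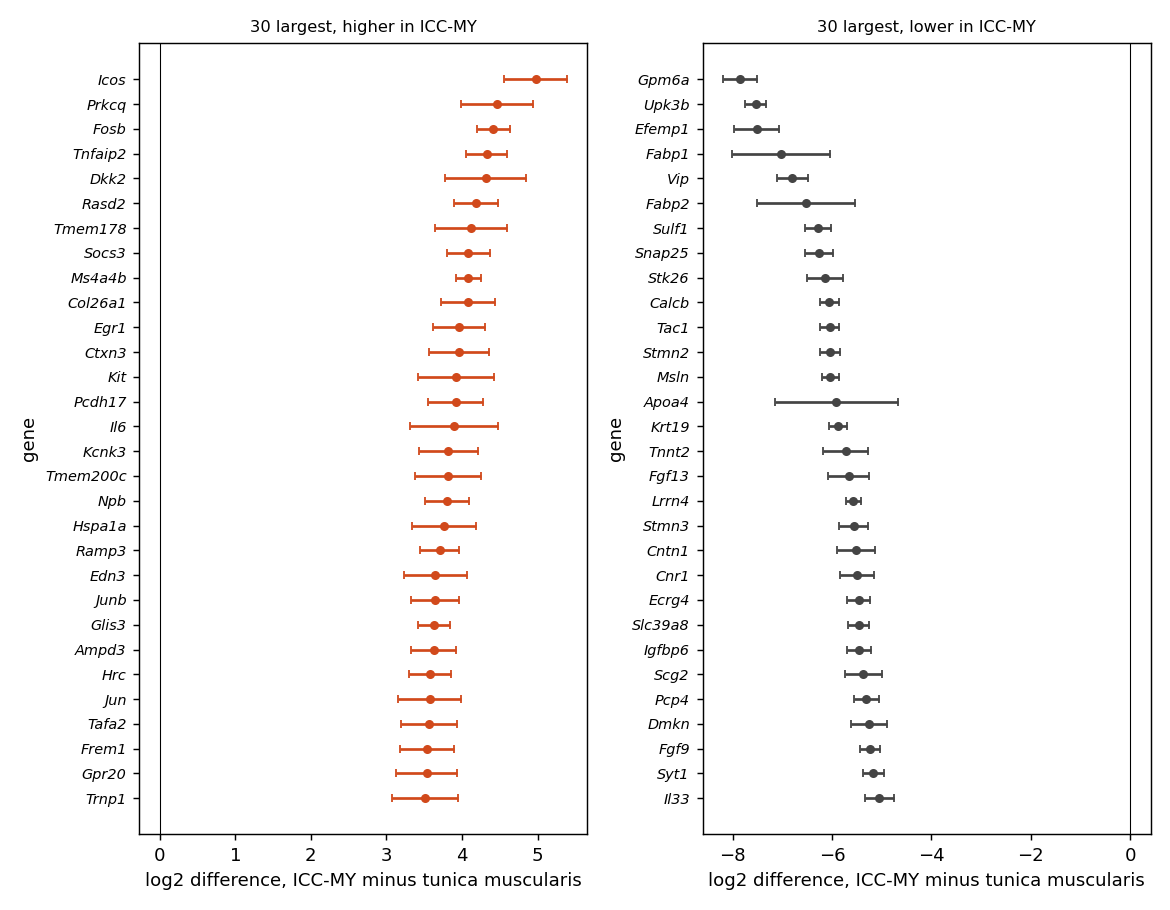
The 30 largest called increases (left) and decreases (right) by log2 difference, ICC-MY minus tunica muscularis (horizontal axis), among genes whose arrays did not overlap; points are limma estimates and bars their standard errors. Icos at 4.97 and Prkcq at 4.46 lead the increases and Gpm6a at -7.86 the decreases.

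Calcium entry genes were called in both directions. Of 15 voltage-gated calcium channel genes measured, 3 were higher and 2 lower (median difference 0.05, against -0.02 for all genes). Over all genes 4.05% were higher and 9.78% lower. Besides Cacna1h, Cacnb4, an accessory beta subunit gene, read 7.12, 7.10 and 7.36 in ICC-MY and 4.07 and 4.34 in tissue, a difference of 2.99 (SE 0.19, adjusted p = 2.93e-05). Cacna1d, which encodes an L-type channel that opens at low voltage, was higher by 1.68 (SE 0.19, adjusted p = 0.00053). Cacna2d3, an alpha2delta subunit gene, was lower, with 3.17, 3.04 and 3.07 in ICC-MY and 5.06 and 5.38 in tissue (difference -2.13, SE 0.19, adjusted p = 0.00017). Cacna1d differed between ICC-MY and ICC-DMP by 0.10 (SE 0.17, adjusted p = 0.859), whereas Cacnb4 was higher in ICC-MY by 2.02 (SE 0.17, adjusted p = 0.000191).

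Among 33 genes of calcium stores and clearance, 5 were higher and 9 lower, where 4.05% of all genes were higher and 9.78% lower. Atp2a3, which encodes the SERCA3 pump that refills stores, read 9.06, 10.56 and 10.50 in ICC-MY and 6.42 and 7.01 in tissue (difference 3.33, SE 0.46, adjusted p = 0.0017). The SERCA2 gene Atp2a2 differed by 0.49 (SE 0.44, adjusted p = 0.61) and its arrays overlapped. Atp2b2, a plasma membrane calcium pump gene, read 7.47, 7.87 and 7.98 against 5.78 and 5.83 (difference 1.97, SE 0.24, adjusted p = 0.000959). The other higher members, Atp2b1, Trpm4 and Slc8a3, lost their calls in 4, 9 and 3 alternatives. Hrc, which is not in the list, encodes a histidine-rich calcium-binding protein of the reticulum and stood among the 30 largest increases. It read 8.56, 9.50 and 9.32 against 5.55 and 5.56 (difference 3.58, SE 0.28, adjusted p = 7.78e-05). The 5 lower members given here had no array overlap; they are not a list of their own. The calsequestrin gene Casq2 read 5.13, 5.01 and 5.15 in ICC-MY and 8.48 and 9.39 in tissue (difference -3.84, SE 0.25, adjusted p = 3.32e-05). The ryanodine receptor genes Ryr2 and Ryr3 differed by -2.91 (SE 0.29, adjusted p = 0.000332) and -2.55 (SE 0.31, adjusted p = 0.000833). The SERCA inhibitor gene Pln differed by -1.79 (SE 0.30, adjusted p = 0.005) and the cation channel gene Trpc4 by -2.08 (SE 0.35, adjusted p = 0.00491). The higher count was 2 without tunica muscularis replicate 1 and 3 when ICC-MY replicate 2 or 3 was left out.

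Chloride transport genes held 5 called higher and 1 called lower of 23 (median difference 0.12). The shares of all genes were 4.05% and 9.78%. With Ano1 and Slc12a2 stood Slc12a7, which encodes the potassium-chloride cotransporter KCC4. It read 8.36, 9.22 and 9.61 in ICC-MY and 6.61 and 7.10 in tissue (difference 2.21, SE 0.35, adjusted p = 0.00372). Slc4a3, an anion exchanger gene, was higher by 1.80 (SE 0.32, adjusted p = 0.00694). The higher count was 2 without tunica muscularis replicate 1.

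Of 61 potassium channel genes 4 were higher and 15 lower, where 4.05% of all genes were higher and 9.78% lower. Kcnk3, which encodes the two-pore channel TASK-1, read 9.15, 10.43 and 10.53 in ICC-MY, 6.02 and 6.42 in tissue and 5.56, 5.88 and 5.69 in ICC-DMP. It was higher than tissue by 3.82 (SE 0.39, adjusted p = 0.000351) and than ICC-DMP by 4.33 (SE 0.35, adjusted p = 0.000147). Kcnmb2, a beta subunit gene of the BK channel, was higher than tissue by 2.54 (SE 0.26, adjusted p = 0.000384), and Abcc8, which encodes the sulfonylurea receptor 1 of ATP-sensitive channels, by 2.36 (SE 0.24, adjusted p = 0.000331). The ERG channel gene Kcnh2 was higher by 2.0 (SE 0.42, adjusted p = 0.0157), but not without tunica muscularis replicate 1 (adjusted p = 0.0834) or replicate 2 (adjusted p = 0.0507). The decreases included voltage-gated channel genes. Kcnq3, an M-current channel gene, read 4.33, 3.82 and 3.71 against 7.25 and 7.26 (difference -3.30, SE 0.21, adjusted p = 2.82e-05), and the differences of Kcnf1 and Kcnd2 were -3.54 (SE 0.32, adjusted p = 0.000174) and -2.23 (SE 0.30, adjusted p = 0.00151). Sodium and cation channel genes held 0 higher and 7 lower of 14, led by Scn9a at -4.22 (SE 0.16, adjusted p = 3.57e-06). When dim genes were left out of the test, 1 was called. Scn9a and Kcnq3 belong to channel families of neurons, and 26 of 33 neuron markers were lower in the same comparison. Their part in these channel differences was not tested.

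**Figure D3:**
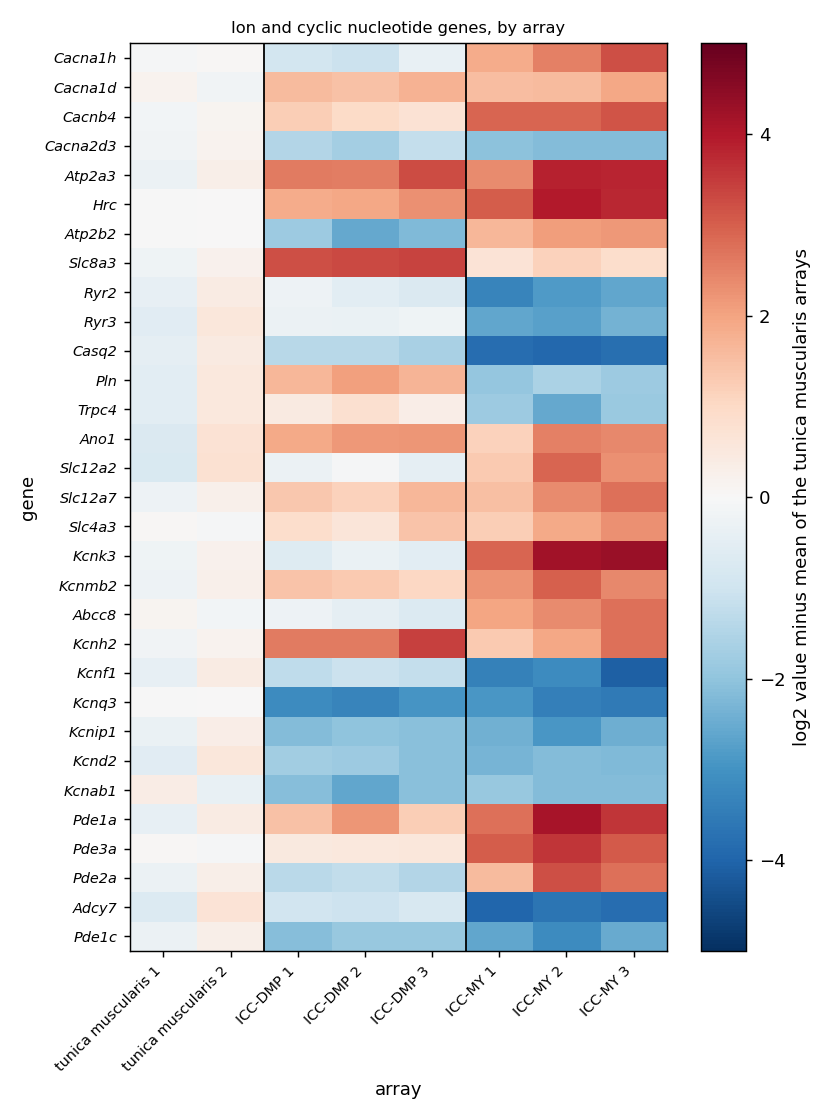
Log2 value minus the mean of the tunica muscularis arrays (colour scale, red higher and blue lower) for 31 genes of ion handling and cyclic nucleotides (rows) on the 8 arrays (columns, groups divided by black lines). Cacna1h, Cacnb4, Kcnk3 and Pde3a are red across the ICC-MY columns, and Casq2, Kcnf1 and Adcy7 are blue across them.

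Genes of cyclic nucleotide breakdown were called in both directions. Of 36 genes of nitric oxide and cyclic nucleotide signalling 6 were higher and 7 lower, where 4.05% of all genes were higher and 9.78% lower. Of the 6 higher, 3 were phosphodiesterase genes with no loss in any alternative. Leaving out tunica muscularis replicate 1 gave 3 higher, and leaving out replicate 2 gave 4 lower. Pde3a, whose product degrades cyclic AMP and is inhibited by cyclic GMP, read 6.96, 7.53 and 7.02 in ICC-MY and 4.0 and 3.90 in tissue (difference 3.22, SE 0.19, adjusted p = 2.07e-05). Pde1a, a calcium-calmodulin dependent enzyme gene, was higher by 3.49 (SE 0.44, adjusted p = 0.00112), and Pde2a, whose product is stimulated by cyclic GMP, by 2.53 (SE 0.43, adjusted p = 0.00487). Pde2a read 10.91, 12.54 and 12.09 in ICC-MY against 7.96, 8.09 and 7.87 in ICC-DMP, higher by 3.88 (SE 0.38, adjusted p = 0.000394). On the other side stood Adcy7, an adenylyl cyclase gene, at -3.81 (SE 0.34, adjusted p = 0.000187), Pde4d at -1.66 (SE 0.22, adjusted p = 0.00139) and Pde1c at -2.75 (SE 0.25, adjusted p = 0.000187). Pde1b was lower too (-1.50 to -0.92 over the alternatives), a call lost in 1 of them. Pde9a and Adcy1, another adenylyl cyclase gene, were called higher than tissue (0.89 to 1.45 and 1.17 to 1.74 over the alternatives). These calls were lost in 4 alternatives for Pde9a and in 2 for Adcy1. Against ICC-DMP, by limma with the replicate number as a block, Pde9a was lower (-1.58, adjusted p = 0.000532) and Adcy1 higher (2.07, adjusted p = 9.27e-05). Nos1, the neuronal nitric oxide synthase gene, differed by -2.67 (SE 0.20, adjusted p = 5.95e-05). It is also 1 of the enteric neuron markers, of which 26 of 33 were lower. The part of neurons in this difference was not tested.

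Phospholipase C and protein kinase C genes held 4 higher and 11 lower of 33 (median difference -0.44), and 2 were higher without tunica muscularis replicate 1 or without ICC-MY replicate 2 or 3. Among all genes 4.05% were higher and 9.78% lower. Of the protein kinase C genes measured, Prkcq was the only one called higher. Prkcb, the gene of the beta isoform, read 3.54, 3.23 and 3.34 in ICC-MY and 6.34 and 6.93 in tissue (difference -3.27, SE 0.22, adjusted p = 3.88e-05). Prkd1, the gene of protein kinase D1, was lower than in tissue (-2.97, SE 0.16, adjusted p = 1.28e-05) and than in ICC-DMP (-2.83, SE 0.14, adjusted p = 2.77e-05). The phospholipase genes Plcb1 and Plce1 differed by -2.93 (SE 0.28, adjusted p = 0.000256) and -2.83 (SE 0.31, adjusted p = 0.000535). Of the genes of RGS proteins, which end G protein signals, Rgs4 differed by -3.94 (SE 0.22, adjusted p = 1.59e-05) and Rgs2 by -3.79 (SE 0.47, adjusted p = 0.000964), while Rgs16 was higher by 1.87 (SE 0.35, adjusted p = 0.00865).

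Of 68 receptor genes for transmitters and peptides, 5 were higher and 18 lower, where 4.05% of all genes were higher and 9.78% lower. Adcyap1r1, which encodes the PAC1 receptor for the neuropeptide PACAP, read 9.33, 10.24 and 10.34 in ICC-MY, 7.22 and 7.60 in tissue and 6.66, 6.64 and 6.50 in ICC-DMP. It was higher than tissue by 2.56 (SE 0.30, adjusted p = 0.000693) and than ICC-DMP by 3.37 (SE 0.27, adjusted p = 0.000134). Grpr, the gastrin-releasing peptide receptor gene, read 5.95, 5.46 and 5.57 against 4.07 and 3.75 (difference 1.75, SE 0.19, adjusted p = 0.000437). Ednrb, the receptor gene for endothelin 3, was higher than tissue by 1.0 (SE 0.22, adjusted p = 0.0183, and 0.102 without tunica muscularis replicate 1). Of the 4 prostaglandin E receptor genes in the list, grouped after their values were seen, 3 were lower. Ptger2 read 3.32, 3.74 and 3.5 in ICC-MY and 6.96 and 7.70 in tissue (difference -3.81, SE 0.24, adjusted p = 2.54e-05). Ptger4 differed by -3.57 (SE 0.31, adjusted p = 0.000158) and Ptger3 by -2.66 (SE 0.34, adjusted p = 0.00115). Ptger1 did not pass (0.41, SE 0.20, adjusted p = 0.253). The nicotinic receptor gene Chrna7 differed by -4.08 (SE 0.23, adjusted p = 1.63e-05) and the serotonin receptor gene Htr3a by -2.81 (SE 0.30, adjusted p = 0.000448). Neither differed between ICC-MY and ICC-DMP by the test (adjusted p = 0.999 and 0.977). The higher count of the list was 2 without tunica muscularis replicate 1.

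Of 13 gap junction genes measured, 0 were higher and 2 lower by limma, counts near the shares of all genes (4.05% and 9.78%). At an unadjusted p under 0.05 there were 3, and at most 1 was higher in any alternative. Gjb5, a connexin gene, read 3.79, 3.83 and 3.59 in ICC-MY and 7.32 and 6.02 in tissue (difference -2.93, SE 0.37, adjusted p = 0.0011), and Panx1, the pannexin 1 gene, differed by -1.16 (SE 0.17, adjusted p = 0.002). Both were lower in each of 17 alternatives. Gja1, which encodes the most widespread connexin, read 11.74, 13.42 and 12.92 in ICC-MY and 10.97 and 12.75 in tissue, overlapping ranges with a difference of 0.83 (SE 0.59, adjusted p = 0.486). Gjc1, another connexin gene, differed by 0.34 (SE 0.38, adjusted p = 0.692) from tissue.

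The contractile programme of smooth muscle was low in ICC-MY. Of 37 genes measured, 23 were lower and 1 higher (median difference -1.72), where 9.78% of all genes were lower. Myocd, which encodes myocardin, the coactivator of serum response factor that drives the smooth muscle programme, read 4.16, 4.83 and 4.65 in ICC-MY and 8.67 and 9.49 in tissue (difference -4.54, SE 0.29, adjusted p = 2.8e-05). Cnn1, the calponin gene, differed by -4.44 (SE 0.26, adjusted p = 1.76e-05). Myh11, the smooth muscle myosin heavy chain gene, read 7.44, 8.2 and 7.65 against 10.97 and 12.57 (difference -4.01, SE 0.44, adjusted p = 0.000551), and Actg2, the enteric actin gene, 7.98, 8.96 and 8.92 against 12.19 and 13.05 (difference -3.99, SE 0.35, adjusted p = 0.000154). For all 4 the groups did not overlap.

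ICC-MY also lay below ICC-DMP for these 4 genes, with differences of -3.24 (SE 0.26, adjusted p = 0.000141) for Myocd, -2.89 (SE 0.23, adjusted p = 0.000138) for Cnn1, -3.21 (SE 0.40, adjusted p = 0.00139) for Myh11 and -3.38 (SE 0.31, adjusted p = 0.000293) for Actg2. Against ICC-DMP, 22 of the 37 were lower, where 5.36% of all genes were. Acta2, the gene of alpha smooth muscle actin, kept a level of 11.32, 12.61 and 12.19 in ICC-MY against 12.82 and 14 in tissue. Its difference of -1.37 (SE 0.43, adjusted p = 0.0762) missed the threshold; with the replicate number as a block it passed (-1.40, adjusted p = 0.00253). The mean level of the contractile list ran from 7.48 to 8.11 on the ICC-MY arrays, from 9.41 to 10.27 in tissue and from 9.21 to 9.35 in ICC-DMP.

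The promoters of the contractile genes were searched for the CArG box, the binding sequence of serum response factor, in the 250 bases before the start site, on both strands, in the RefSeq promoter table (build GRCm38.p6). It was found for 7 of 33 contractile genes in the table (21.21%). The list of the immediate early and dissociation response held it for 2 of 28 genes (7.14%). Of all 32851 promoters, 482 (1.47%) held it. The lists count a gene with a match in any of its promoters, and the last share counts single promoters. These percentages are therefore not on the same unit. A match describes letters in this window only. Myl9, a myosin light chain gene, and Ldb3, which encodes a Z-line protein, are shown because a CArG box stood in the window and the gene was lower in ICC-MY in each of 17 alternatives; both were chosen after their values were seen. They were the 2 of the 7 contractile genes with the box that were lower; Cnn2, Myl6, Vcl, Srf and Dmd also held it and did not pass (differences from -1.26 to -0.16, adjusted p = 0.0711 to 0.881). Myl9 read 10.15, 11.20 and 10.51 in ICC-MY and 12.43 and 13.37 in tissue (difference -2.28, SE 0.37, adjusted p = 0.00403), and Ldb3 read 4.41, 4.39 and 4.86 against 7.07 and 8.02 (difference -2.99, SE 0.29, adjusted p = 0.000274). The sequences run 5′ to 3′ toward the start site, with the CArG box in capitals, from chr2:156775214-156775463 on the plus strand for Myl9 and chr14:34588682-34588931 on the minus strand for Ldb3.
Myl9: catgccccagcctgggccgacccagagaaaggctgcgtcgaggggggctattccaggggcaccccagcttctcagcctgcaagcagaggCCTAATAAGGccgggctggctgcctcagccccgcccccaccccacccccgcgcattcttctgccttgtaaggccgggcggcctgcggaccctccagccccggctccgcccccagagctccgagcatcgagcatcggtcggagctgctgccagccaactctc
Ldb3: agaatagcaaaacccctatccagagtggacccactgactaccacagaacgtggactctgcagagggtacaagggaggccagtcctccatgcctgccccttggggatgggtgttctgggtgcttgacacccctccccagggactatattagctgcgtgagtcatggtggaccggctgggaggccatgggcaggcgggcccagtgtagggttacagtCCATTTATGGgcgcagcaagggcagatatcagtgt

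Markers of several other cells of the muscle coat were low in ICC-MY. Of 33 enteric neuron markers 26 were lower and 0 higher (median difference -3.29), and their mean level was 4.19 to 4.23 on the ICC-MY arrays and 7.06 and 7.35 in tissue. Vip, which encodes vasoactive intestinal peptide, read 2.84, 2.77 and 3.05 against 9.09 and 10.29 (difference -6.80, SE 0.31, adjusted p = 6.05e-06). Snap25, a gene of synaptic vesicle release, differed by -6.26 (SE 0.28, adjusted p = 5.49e-06), and Tac1, the substance P gene, by -6.05 (SE 0.19, adjusted p = 2.37e-06). In ICC-DMP these 3 genes were as low, with differences between the classes from -0.25 to -0.16 that did not pass (adjusted p = 0.553 to 0.86).

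Of 14 mesothelial markers 12 were lower and 1 higher (median difference -4.83), with a mean level of 4.42 to 4.59 in ICC-MY and 8.63 and 9.05 in tissue. Upk3b, a uroplakin gene of the serosal lining, read 3.77, 3.69 and 3.59 against 10.84 and 11.60 (difference -7.54, SE 0.22, adjusted p = 2.34e-06). Gpm6a, the largest decrease of all, differed by -7.86 (SE 0.34, adjusted p = 5.31e-06) and also belongs to neurons. The exception was Adgrd1, an adhesion receptor gene, which read 8.90, 10.03 and 9.69 in ICC-MY and 6.21 and 6.66 in tissue (difference 3.11, SE 0.32, adjusted p = 0.000388).

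Macrophage markers were lower for 12 of 19 and higher for 0, among them Csf1r, the receptor gene for macrophage growth factor, at -4.44 (SE 0.38, adjusted p = 0.000143), and Mrc1, the mannose receptor gene, at -4.23 (SE 0.27, adjusted p = 2.8e-05). When dim genes were left out 4 of them were called. Of 11 glial markers 5 were lower and 1 was higher, the receptor gene Ednrb given above. Fabp7 led the decreases at -4.83 (SE 0.48, adjusted p = 0.000303). Sox10 did not pass (-0.87, SE 0.29, adjusted p = 0.0946, and 0.0202 with the replicate number as a block). Mast cell markers gave 0 calls of 11 by limma, 0 in every alternative and 0 at an unadjusted p under 0.05.

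Of 18 markers of fibroblasts and PDGFRA cells 8 were lower and 0 higher, with 3 lower when tunica muscularis replicate 2 was left out and 5 without ICC-DMP replicate 2. Pdgfra read 8.39, 9.19 and 9.41 in ICC-MY and 9.99 and 11.54 in tissue, a difference of -1.77 (SE 0.46, adjusted p = 0.0378) that did not pass without tunica muscularis replicate 2 (adjusted p = 0.201), nor without any 1 of the ICC-MY arrays (adjusted p = 0.0513 to 0.0718). Fbln2, a fibulin gene of the matrix, was lower in every alternative (-3.34, SE 0.34, adjusted p = 0.000371). Epithelial markers were lower for 5 of 16 and unequal between the tissue arrays: their mean level was 4.95 on tunica muscularis replicate 1 and 7.40 on replicate 2. Fabp1, an enterocyte gene, read 7.0 and 11.29 on those arrays and 2.08, 2.23 and 2.04 in ICC-MY. Without tunica muscularis replicate 1, 13 of the 16 were lower, and 8 with the replicate number as a block.

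Of 10 pericyte markers 2 were higher and 1 lower (median difference 0.06), where 4.05% of all genes were higher and 9.78% lower. Pdgfrb, a receptor gene known from pericytes, read 8.16, 8.55 and 9.35 in ICC-MY and 5.09 and 5.53 in tissue (difference 3.37, SE 0.36, adjusted p = 0.000478), and Notch3 was higher by 1.80 (SE 0.21, adjusted p = 0.000707). Des, the desmin gene of muscle and pericytes, was lower (-2.42, SE 0.34, adjusted p = 0.0018), and the lower count was 3 with the replicate number as a block. Of 18 endothelial markers 1 was higher and 1 lower (median difference 0.21), counts near those shares of all genes. Eng, the endoglin gene of TGF-beta signalling, was higher by 2.92 (SE 0.32, adjusted p = 0.000499), and Vwf, the von Willebrand factor gene, was lower (-2.53, SE 0.27, adjusted p = 0.000483). The mean level of the endothelial list was 4.73 to 5.41 in ICC-MY, 4.77 and 5.01 in tissue and 4.21 to 4.38 in ICC-DMP, and 9 of its 18 genes were higher in ICC-MY than in ICC-DMP, where 3.30% of all genes were. The part of vascular cells in these differences was not tested.

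**Figure D4:**
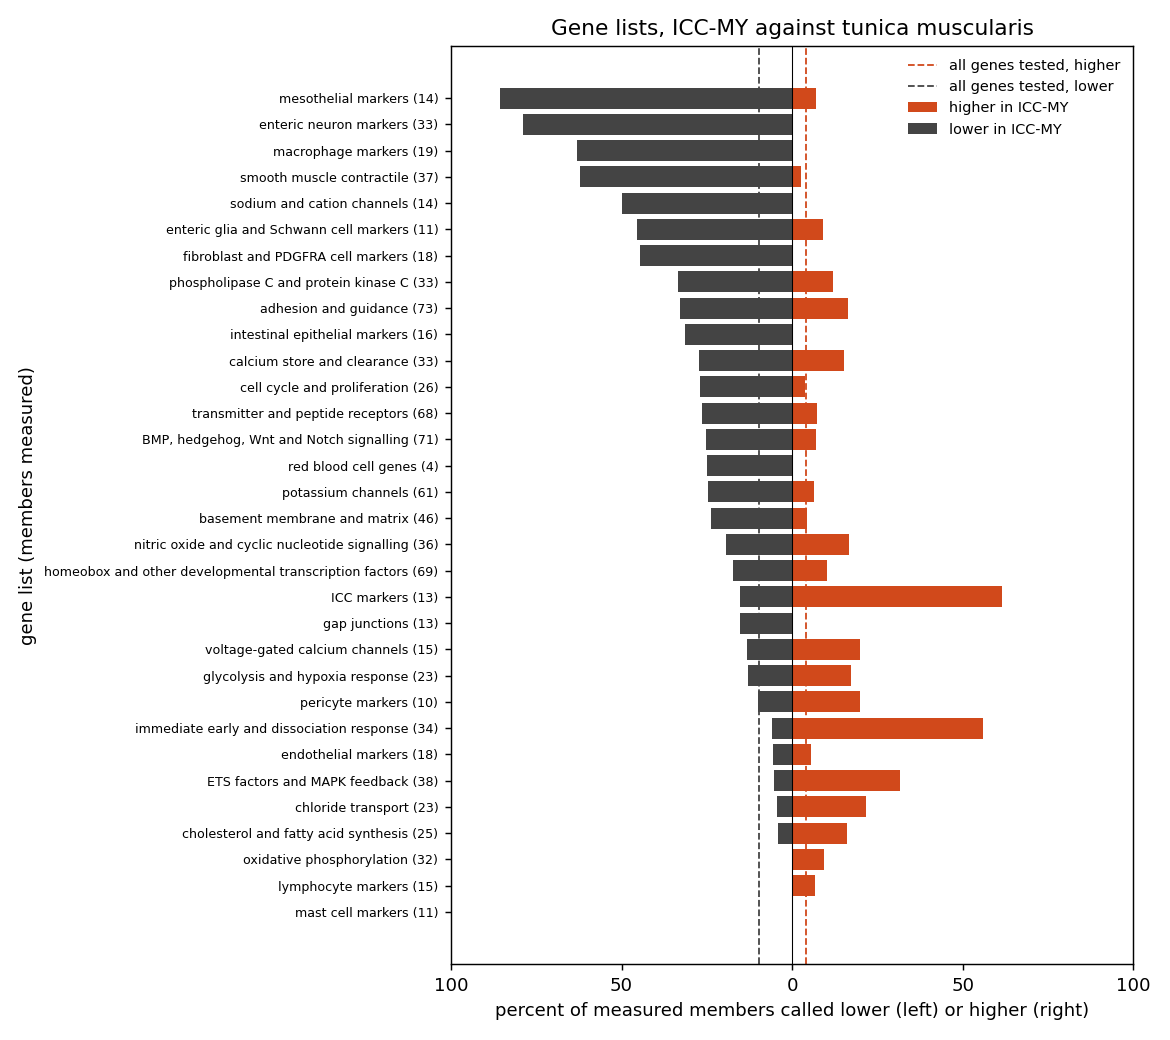
Percent of the measured members of each of 32 gene lists (rows, number measured in parentheses) called higher (right) or lower (left) in ICC-MY than in tunica muscularis; dashed lines mark all genes, 4.05% higher and 9.78% lower. Mesothelial (12 of 14) and neuron markers (26 of 33) reach farthest to the left. ICC markers (8 of 13) and the immediate early and dissociation list (19 of 34) reach farthest to the right.

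Immediate early genes respond within minutes to stimuli and to the dissociation of tissue. The list of the immediate early and dissociation response also holds heat shock genes and Socs3, and its members were mostly higher in ICC-MY. Of 34 measured, 19 were higher and 2 lower (median difference 1.64). The 2 lower were Fosl2, a gene of the AP-1 family, and the heat shock gene Hspb1. Fosb, a subunit gene of the AP-1 transcription factor, read 7.63, 7.81 and 7.64 in ICC-MY and 3.31 and 3.26 in tissue (difference 4.41, SE 0.22, adjusted p = 8.03e-06). Egr1, a zinc finger factor gene, read 10.98, 12.33 and 11.68 against 7.90 and 7.5 (difference 3.96, SE 0.35, adjusted p = 0.000158). Socs3, a feedback inhibitor gene of cytokine signals, was higher by 4.08 (SE 0.28, adjusted p = 4.36e-05), and Hspa1a, a heat shock protein gene, by 3.76 (SE 0.43, adjusted p = 0.000601). All ICC-MY arrays lay above both tissue arrays for these 4 genes.

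Between the classes, ICC-MY was lower for 23 of the 34 and higher for 0, where 5.36% of all genes were lower. Fosb read 9.73, 9.65 and 10.34 in ICC-DMP (ICC-MY minus ICC-DMP -2.21, SE 0.19, adjusted p = 0.000235), and Jun differed between the classes by -2.11 (SE 0.38, adjusted p = 0.00932). Socs3 differed by -1.23 (SE 0.25, adjusted p = 0.0185), a call lost in 4 of 16 alternatives, among them without ICC-MY replicate 3 and without ICC-DMP replicate 2 or 3 (highest adjusted p = 0.0753). Egr1 did not pass between the classes (-0.94, SE 0.31, adjusted p = 0.129), nor did Hspa1a (-1.44, SE 0.38, adjusted p = 0.0573, and 0.000863 with the replicate number as a block). The mean level of the list was 8.32 to 9.05 in ICC-MY, 6.91 and 7.07 in tissue and 9.99 to 10.17 in ICC-DMP, with no overlap between the 3 groups. The part of cell isolation in these values was not tested.

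The core of the cyclic AMP response element is TGACGT or ACGTCA, which are the 2 strands of 1 motif. Lists were again counted by gene, and all promoters singly. The core stood in the same 250-base window for 7 of 28 genes of the immediate early and dissociation list (25.0%). It stood for 2 of 33 contractile genes (6.06%) and in 2125 of 32851 promoters (6.47%). Fos and Dusp1 are shown because both held it and were higher in ICC-MY in each of 17 alternatives; they too were chosen after their values were seen. Of the 7 genes with the core 6 were higher, and Nr4a3 did not pass (0.11, SE 0.17, adjusted p = 0.81). Fos, the founding AP-1 gene, read 11.85, 13.53 and 12.88 in ICC-MY and 9.61 and 10.34 in tissue (difference 2.77, SE 0.45, adjusted p = 0.00426). Dusp1, which encodes a phosphatase that ends MAP kinase signals, read 10.81, 12.43 and 11.51 against 8.28 and 8.81 (difference 3.04, SE 0.41, adjusted p = 0.00144). Capitals mark every match of this core; in the second Dusp1 site the matches on both strands overlap. The sequences were read from chr12:85473640-85473889 on the plus strand for Fos and chr17:26508473-26508722 on the minus strand for Dusp1, with RefSeq and build as above.
Fos: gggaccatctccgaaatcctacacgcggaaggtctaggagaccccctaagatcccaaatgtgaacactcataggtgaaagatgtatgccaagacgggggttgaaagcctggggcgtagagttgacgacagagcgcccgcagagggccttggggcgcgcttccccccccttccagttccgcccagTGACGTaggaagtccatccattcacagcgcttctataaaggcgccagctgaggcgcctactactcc
Dusp1: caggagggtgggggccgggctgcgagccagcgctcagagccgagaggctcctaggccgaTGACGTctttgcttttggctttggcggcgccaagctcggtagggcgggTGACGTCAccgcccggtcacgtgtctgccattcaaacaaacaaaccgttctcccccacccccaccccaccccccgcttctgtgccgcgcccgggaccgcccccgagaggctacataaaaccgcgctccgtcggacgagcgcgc

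**Figure D5:**
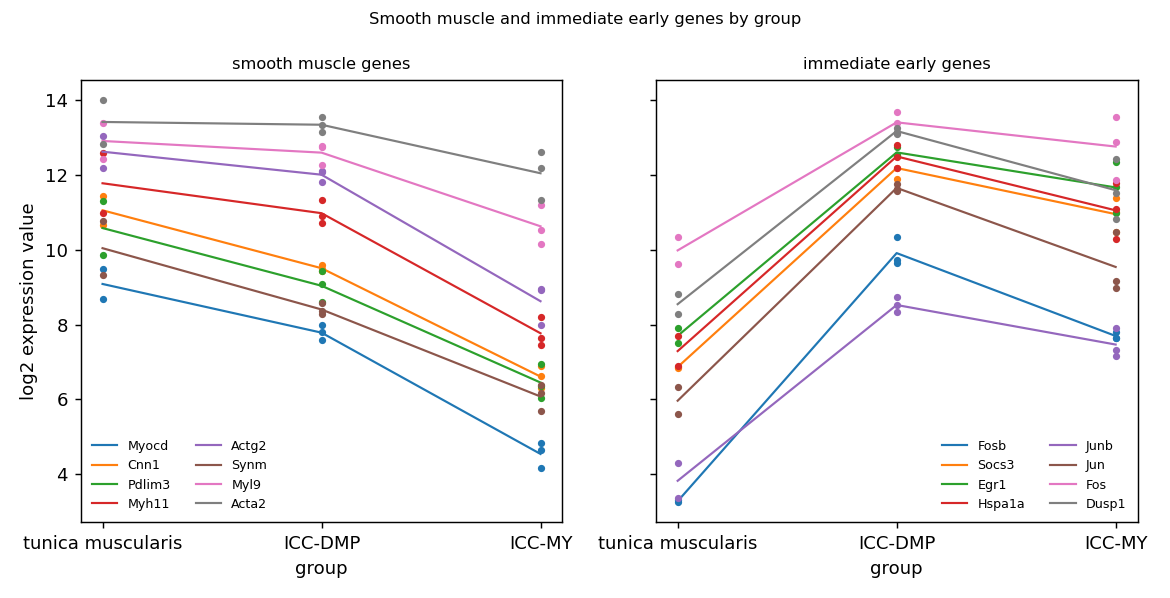
Log2 expression values (vertical axis) of 8 smooth muscle genes (left) and 8 genes of the immediate early and dissociation list (right). The 3 groups are on the horizontal axis, points are arrays and lines join group means. Myocd reads 8.67 and 9.49 in tissue and 4.16 to 4.83 in ICC-MY, while Fosb is lowest in tissue, intermediate in ICC-MY and highest in ICC-DMP.

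Feedback genes of the MAP kinase pathway, which KIT and other receptor kinases use, were in part higher. Among all genes 4.05% were higher and 9.78% lower. Of 38 genes of the ETS factor and MAPK feedback list, 12 were higher and 2 lower (median difference 0.40), and without tunica muscularis replicate 1 the higher count was 6. The largest increase of this list was Egr1 (3.96), which also belongs to the immediate early and dissociation list. What cell isolation contributed to the list was not tested. Spry1, a sprouty inhibitor gene of receptor tyrosine kinase signals, read 9.94, 10.80 and 10.96 in ICC-MY, 7.44 and 7.88 in tissue and 7.80, 7.59 and 7.37 in ICC-DMP. It was higher than tissue by 2.91 (SE 0.31, adjusted p = 0.000446) and than ICC-DMP by 2.98 (SE 0.28, adjusted p = 0.000304). Phlda1 was higher than tissue by 2.83 (SE 0.21, adjusted p = 6.49e-05) and Spry4 by 1.78 (SE 0.22, adjusted p = 0.00102). Etv5, an ETS factor gene related to Etv1, was higher than tissue by 1.97 (SE 0.21, adjusted p = 0.000494) and lower than in ICC-DMP (-1.06, SE 0.19, adjusted p = 0.0101, and 0.0532 as the highest over alternatives).

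Of 69 developmental transcription factor genes, 7 were higher and 12 lower, with 7 lower when tunica muscularis replicate 2 was left out. Over all genes 4.05% were higher and 9.78% lower. Foxp2, a forkhead factor gene, read 10.90, 11.94 and 12.02 in ICC-MY and 8.98 and 10.00 in tissue (difference 2.13, SE 0.39, adjusted p = 0.00797), and all 6 of its probe sets were called higher. Foxf1, a forkhead gene of gut mesenchyme, was higher by 1.93 (SE 0.21, adjusted p = 0.000467). Hoxd8 read 7.23, 7.76 and 7.93 in ICC-MY, 6.33 and 6.27 in tissue and 5.21, 5.06 and 5.01 in ICC-DMP, so that ICC-MY was above both. Id1, an inhibitor of differentiation gene induced by BMP signals, read 4.65, 4.98 and 4.89 in ICC-MY against 6.38 and 6.62 in tissue (difference -1.66, SE 0.23, adjusted p = 0.00181). Irx3 and Irx5 in ICC-MY did not pass against tissue (-0.62, adjusted p = 0.0651, and -0.09, adjusted p = 0.912), although Irx3 was called in 3 alternatives. Both were lower in ICC-MY than in ICC-DMP (-4.52, SE 0.17, adjusted p = 6.95e-06, and -4.53, SE 0.23, adjusted p = 2.77e-05).

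Genes of BMP, hedgehog, Wnt and Notch signalling held 5 higher and 18 lower of 71 (median difference -0.39). The shares of all genes were 4.05% and 9.78%. The lower count was 30 with the replicate number as a block, 28 without both narrow-range arrays and 13 with only the ICC-MY and tissue arrays fitted, and the higher count was 3 without tunica muscularis replicate 1. Bmp7, a BMP ligand gene, read 6.39, 6.79 and 7.08 in ICC-MY and 4.88 on both tissue arrays (difference 1.88, SE 0.20, adjusted p = 0.000458). The ligand gene Bmp4 went the other way (-1.94, SE 0.20, adjusted p = 0.000428), as did the BMP antagonist gene Grem1, which read 5.89, 6.59 and 6.69 against 9.03 and 9.15 (difference -2.70, SE 0.34, adjusted p = 0.00111). Wnt5a, a Wnt ligand gene, read 3.61, 3.44 and 3.98 against 7.53 and 8.08 (difference -4.13, SE 0.25, adjusted p = 1.98e-05). The Wnt antagonist genes divided, with Dkk2 higher and Sfrp2 and Wif1 lower (-2.58, SE 0.20, adjusted p = 7.46e-05, and -1.88, SE 0.24, adjusted p = 0.00106).

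Adhesion and guidance genes changed in both directions, 12 higher and 24 lower of 73, with 7 higher when tunica muscularis replicate 1 was left out. The shares of all genes were 4.05% higher and 9.78% lower. Besides Pcdh17, Epha4, an ephrin receptor gene, read 8.46, 9.02 and 8.87 in ICC-MY and 5.54 and 5.85 in tissue (difference 3.09, SE 0.31, adjusted p = 0.000331). Nrcam, a neuronal cell adhesion molecule gene, was higher than tissue by 2.11 (SE 0.26, adjusted p = 0.00097) and than ICC-DMP by 3.54 (SE 0.23, adjusted p = 6.52e-05), and Slit3, a guidance ligand gene, was higher than tissue by 1.95 (SE 0.24, adjusted p = 0.00101). Cntn1, the contactin gene, read 4.66, 4.88 and 3.92 against 9.56 and 10.44 (difference -5.52, SE 0.38, adjusted p = 4.19e-05). The semaphorin gene Sema3c differed by -5.01 (SE 0.39, adjusted p = 7.54e-05), Alcam by -4.67 (SE 0.21, adjusted p = 5.31e-06), and the desmosomal gene Pkp2 by -4.63 (SE 0.27, adjusted p = 1.74e-05). Of 46 matrix genes 2 were higher and 11 lower, where 4.05% of all genes were higher and 9.78% lower. The collagen gene Col18a1 was among the lower (-3.19, SE 0.21, adjusted p = 3.44e-05).

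Of 32 genes of oxidative phosphorylation 3 were higher and 0 lower (median difference 0.48), where 4.05% of all genes were higher and 9.78% lower. The higher count was 16 after quantile normalization, 10 without ICC-MY replicate 1 and 7 with the replicate number as a block. Ppargc1a, the gene of the coactivator PGC-1alpha that drives mitochondrial biogenesis, read 9.45, 10.43 and 10.53 in ICC-MY and 6.37 and 7.79 in tissue (difference 3.06, SE 0.45, adjusted p = 0.0023), and all 5 of its probe sets were called higher. Nrf1, the nuclear respiratory factor gene, was higher by 1.13 (SE 0.16, adjusted p = 0.00196). The third called member was Esrra, also a regulator gene, whose call was lost in 4 alternatives. No gene of the respiratory chain or ATP synthase was called in the main fit, and Cox5b, Cox7a2 and Atp5c1 were among those that did not pass. The glycolysis and hypoxia list held 4 higher and 3 lower of 23 (median difference 0.40), to be read against the same shares. Ldhb, a lactate dehydrogenase gene, was higher by 2.12 (SE 0.49, adjusted p = 0.0221), as were Vegfa, Hk1 and Pfkm (1.18 to 1.41), and the lower members were the aldolase gene Aldoc (-2.22, SE 0.19, adjusted p = 0.000151), the hexokinase gene Hk2 (-1.56, SE 0.22, adjusted p = 0.00171) and Pdk1 (-1.14). Its higher count was 9 without ICC-MY replicate 1 and 1 when ICC-MY replicate 2, replicate 3 or tunica muscularis replicate 1 was left out, and its lower count was 5 with the block. Of 25 genes of cholesterol and fatty acid synthesis 4 were higher and 1 lower, against the same shares. Elovl6, given among the ICC markers, led the increases.

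Of the 26 cell cycle genes 7 were lower and 1 higher, where 9.78% of all genes were lower and 4.05% higher. Ccna2, the cyclin A2 gene, differed by -1.35 (SE 0.21, adjusted p = 0.00338). Cdkn1a, the gene of the cell cycle inhibitor p21, was higher by 1.73 (SE 0.25, adjusted p = 0.00224). The lower count was 3 when either tissue array or ICC-DMP replicate 1 was left out, and 4 without ICC-MY replicate 2.

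Genes that set ICC-MY apart from both comparison groups numbered 333 higher (1.83% of 18193) and 532 lower (2.92%), each called against tissue and against ICC-DMP. Among the 30 largest increases over tissue, those highest above ICC-DMP were Dkk2 (5.23, SE 0.48, adjusted p = 0.000286), Icos (5.14, SE 0.37, adjusted p = 9.86e-05), Pcdh17 (5.10, SE 0.33, adjusted p = 5.65e-05) and Tafa2 (5.10, SE 0.33, adjusted p = 5.67e-05). Vcam1, which encodes a vascular cell adhesion molecule, read 8.92, 10.18 and 9.59 in ICC-MY, 5.78 and 6.68 in tissue and 4.77, 4.64 and 4.20 in ICC-DMP, with no overlap between the 3 groups. Met, the receptor gene for hepatocyte growth factor, was low in ICC-MY alone. It read 4.14, 4.11 and 4.16 there, 8.05 and 8.89 in tissue and 8.49, 8.59 and 8.46 in ICC-DMP (difference from tissue -4.33, SE 0.23, adjusted p = 1.2e-05). Bmper, a gene of a secreted BMP regulator, was lower than tissue (-4.62, SE 0.23, adjusted p = 8.03e-06) and lower than ICC-DMP (-4.49, SE 0.20, adjusted p = 1.78e-05).

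The 2 ICC classes were called in opposite directions against tissue, and different from each other, for 103 genes (0.566%). ICC-MY was higher than tissue for 23 of them and lower for 80. The contrasts of both classes share the tissue arrays, so only the difference between the classes is independent of them. The naming rule covers another set of 23 of the 103, with genes of both directions, and these are given with the closing observations.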

How the data were processed

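Transcript levels were measured on 1-colour oligonucleotide arrays. The authors deposited 1 log2 value for each probe set on each array; per the submitters' processing notes the authors used RMA and limma, without versions or roles. The sources used here do not say whether all arrays were normalized together. Of 45101 probe sets 64 controls were left out. Of the rest 34945 named 1 gene in the platform annotation, 932 several, and 9160 were unnamed. The RefSeq gene table (GRCm38.p6) held 34741 of the 34945, and 0 symbols were updated. Each of 18193 genes was represented by its probe set of highest mean over the 8 arrays among those naming that gene alone; 9010 genes had more than 1. The values were used as deposited, without a filter.

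Groups came from the titles. Differences were fitted with limma 3.58.1 in R 4.3.3 (lmFit, contrasts.fit, eBayes; 8 arrays, 3 groups, 5 residual and 3.17 prior degrees of freedom). Tests were 2-sided and adjusted by Benjamini-Hochberg over all genes; a gene was called at an adjusted p under 0.05. Errors are limma's standard errors of a log2 difference, where 1 unit is a doubling, and the number of arrays limits the precision. The fit was tested on simulated data.

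The members, the 32 gene lists and the naming rule were chosen with earlier results of these data known. Named were the 30 largest called differences per direction from tissue and the 15 per direction from ICC-DMP whose arrays lay apart (clone, EST, LOC, Gm and RIKEN names left out), all ICC markers, and per list up to 6 called members per direction by size and 3 that did not pass by highest mean. Of 1030 list entries 952 were measured. Of 167 named called genes with several probe sets, 103 had another called the same way and 1 had one called the other way.

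The main fit took the samples as unpaired, and the sources used here do not say whether the replicate numbers pair them. Deviations from the group means correlated above 0.1 in all 7 same-numbered pairs (0.155 to 0.608). Of 14 differently numbered pairs (-0.608 to 0.169) 2 did so too. The deviations of the 2 tissue arrays are exact opposites by construction, and centring small groups lowers the differently numbered correlations. These values therefore do not establish a pairing. Eif2s3y was low only on tunica muscularis replicate 1, so same-numbered samples may not share animals. The fit with the number as a block was an alternative, beside others of normalization, dim genes, probe sets, spread model and arrays left out.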

Additional observations from a re-analysis of the deposited data

Results flagged for a closer look

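For 23 of the named genes ICC-MY and ICC-DMP were called in opposite directions against tunica muscularis, and the difference between the classes itself was called by limma. In 14 of the 23 the call of ICC-MY against tissue held in every alternative. The call of ICC-DMP against tissue was not followed over the alternatives, so the stability of the opposite directions was not tested. By limma its adjusted p was near the threshold for Osr1 (0.0464), Ampd3 (0.0427), Ednrb (0.0426) and Wnt9a (0.0415). Values below are ICC-MY minus ICC-DMP on the log2 scale; no cause was tested.

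The genes higher in ICC-MY and lower in ICC-DMP than in tissue were the desmosomal gene Dsp (5.24), Sgpp2 (5.12), Tafa2 (5.10), Vcam1 (5.03), Ampd3 (4.77), Osr1 (4.41), the calcium pump gene Atp2b2 (4.17), Nrcam (3.54), Hoxd8 (2.55) and Ednrb (1.86). Osr1, an odd-skipped factor gene, read 9.41, 10.54 and 10.78 in ICC-MY, 6.96 and 7.75 in tissue and 5.89, 5.79 and 5.83 in ICC-DMP. Ampd3, an AMP deaminase gene, read 7.5, 8.52 and 8.40 against 4.39 and 4.65 in tissue and 3.30, 3.51 and 3.31 in ICC-DMP.

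The genes lower in ICC-MY and higher in ICC-DMP than in tissue were the glutamate receptor gene Gria1 (-4.92), Slc26a7 (-4.81), Wif1 (-4.72), Bmpr1b (-4.71), Id1 (-4.65), Grem1 (-4.46), Ankrd63 (-4.37), Fam184b (-4.36), Pln (-3.60), Id2 (-3.35), Wnt9a (-3.31), Hk2 (-3.18) and Hspb1 (-1.93). Gria1 read 4.07, 3.59 and 4.2 in ICC-MY, 5.31 and 5.06 in tissue and 8.83, 8.87 and 8.91 in ICC-DMP. Pln read 8.93, 9.28 and 9.05, then 10.34 and 11.41, and 12.53, 12.94 and 12.59 in the same order. In 9 of the 23 the call of ICC-MY against tissue was lost in at least 1 alternative: Dsp, Sgpp2, Ednrb, Slc26a7, Bmpr1b, Ankrd63, Fam184b, Id2 and Hspb1.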

How the results depend on the processing

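Of 254 named genes called against tissue, 196 were called in all 17 alternatives, 58 were lost in at least 1 and 0 changed direction; 35 of the 92 not called were called in at least 1. The most calls were lost when only the ICC-MY and tissue arrays were fitted (46 genes) and without tunica muscularis replicate 1 (38). Counts of genes differing from tissue, 2516 in all (736 higher, 1780 lower), were 1520 (386 and 1134) with only those 5 arrays fitted, 3916 (1434 and 2482) after quantile normalization, and 4452 (1704 and 2748) with all 34945 single-gene probe sets tested. Leaving out 1 array gave 1965 to 2960 in all, 411 to 1255 higher and 1310 to 1913 lower. Genes were higher in 29.3% of calls, in 42.4% without ICC-MY replicate 1 and in 17.7% without tunica muscularis replicate 1. The 1577 genes differing from ICC-DMP became 2617 with the replicate block, 2556 after quantile normalization, 2646 with array weights, 2630 without both narrow-range arrays, and 991 to 1840 without 1 array. The replicate block gave 3537 genes differing from tissue (1079 higher and 2458 lower). Of 346 named genes the block gained 8 calls against tissue, Acta2 and Sox10 among them, and 35 between the classes, Hspa1a among them, and lost 0 of either. With 2 tissue arrays, 1 array can decide a call, and dim genes have little room to fall.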

Other observations

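The 9160 probe sets not in the platform annotation were fitted and adjusted on their own. By limma 1194 of them were called between ICC-MY and tunica muscularis, 1009 higher in ICC-MY and 185 lower. Their calls were mostly higher, whereas among the 18193 genes 4.05% were higher and 9.78% lower. The balance of directions given above holds for the named genes only. These probe sets have no gene name here and entered no list.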
